A study of Homo sapiens with 4 samples.

Results

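Listed ATAC-seq peaks around CHD7 and 3 genes that the study names as its targets, AK4, UTP14A and TFAP4, were examined in RKO cells. RKO is a human colon cancer cell line. In ATAC-seq the Tn5 transposase cuts and tags open DNA, and a peak is a stretch where the sequenced fragments pile up above background. The groups were cells stably infected with control lentivirus (2 libraries) and cells in which a lentivirus expressed shCHD7-2, an shRNA that targets CHD7 (2 libraries). The labels give no other treatment or genotype and do not say whether the libraries of a group came from separate cultures, so their spread may be technical. Each gene was taken with its hg19 span and 50 kb on each side. All peaks that overlapped these 4 windows (713 kb in total) were included, 18 in all, and peaks that overlapped each other were merged into regions. The windows held 13 of the 20450 regions of the whole series. The genes were fixed by name and not by their values here. The study displayed the promoters of the 3 target genes from these same libraries and reported lower accessibility there after CHD7 knockdown. The direction of any difference at them is therefore not independent evidence. The study also assayed these promoters by ATAC-qPCR and by chromatin immunoprecipitation of CHD7, which were not examined here.

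CHD7 is an ATP-dependent chromatin remodeller of the chromodomain helicase family. It moves nucleosomes along DNA and is known from developmental enhancers and promoters. AK4 encodes an adenylate kinase of the mitochondrial matrix, an enzyme that passes phosphate between adenine nucleotides. UTP14A encodes a nucleolar protein needed for processing of ribosomal RNA, and TFAP4 encodes AP-4, a basic helix-loop-helix transcription factor that binds E-box sequences. An active promoter usually shows a nucleosome-depleted stretch just before its start site, which ATAC-seq can detect as a peak.

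Upstream sequences were read for AK4 and UTP14A, the 2 of the 4 genes found in the RefSeq promoter set used here. A peak covered the bases just before the UTP14A start, and none covered those of AK4. The sequences are the 250 bases before the first listed start in RefSeq (GRCh38.p14, plus strand), at chr1:65147302-65147551 for AK4 and chrX:129905914-129906163 for UTP14A. The peaks are on hg19 and were not converted, so the sequences are related to them only by distance from the start. Capitals mark matches to the motifs searched on both strands.
AK4: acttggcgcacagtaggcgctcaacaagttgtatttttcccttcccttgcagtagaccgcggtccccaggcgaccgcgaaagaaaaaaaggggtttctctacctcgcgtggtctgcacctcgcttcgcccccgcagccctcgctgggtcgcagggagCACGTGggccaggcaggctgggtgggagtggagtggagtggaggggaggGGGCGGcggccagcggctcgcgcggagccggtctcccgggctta
UTP14A: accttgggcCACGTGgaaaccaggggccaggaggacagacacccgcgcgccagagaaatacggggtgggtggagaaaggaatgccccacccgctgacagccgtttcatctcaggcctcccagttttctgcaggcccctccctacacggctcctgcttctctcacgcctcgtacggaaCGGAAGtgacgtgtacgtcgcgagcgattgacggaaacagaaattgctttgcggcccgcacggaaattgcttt

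Both sequences were rich in CpG, with 23 CpG in AK4 and 21 in UTP14A against a median of 11 over 35116 RefSeq promoter stretches of the same length. Their GC content was 66.4% in AK4 and 60.0% in UTP14A, against a median of 58.0%. Each held the E-box CACGTG, which starts 93 bases before the start in AK4 and 241 bases before it in UTP14A. This E-box was present in 6.34% of all stretches. AK4 also held the GC box GGGCGG (42.6% of all stretches), and UTP14A held the ETS core CGGAAG (16.5%). Neither sequence held the AP-4 E-box CAGCTG (14.0%), CCAAT (32.0%) or TATAAA (10.7%). None of these matches overlapped another, and a match describes letters only. RefSeq lists 4 starts for AK4, of which the later ones lie 301, 651 and 1442 bases after the first in that build. Sequences of TFAP4 and CHD7 were not found in the promoter set used.

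The lists held 13257 and 12092 peaks in control replicates 1 and 2, and 7199 and 8715 in shCHD7-2 replicates 1 and 2 (chromosomes 1 to 22 and X). Read totals were not used here, and relative depth was read from the typical background pileup, solved from the values deposited for each peak. It was 0.916 and 0.843 reads in control and 1.40 and 1.62 reads in shCHD7-2. The lowest listed summits held 6 reads in both control lists and 8 reads in both shCHD7-2 lists, so a site without a peak may hold reads below these values and is not shown to be closed. CHD7 transcript or protein was not measured in these files, and peaks at the CHD7 gene do not check the knockdown.

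Across the 4 windows, 15 of the 18 peaks were in control libraries and 3 were in shCHD7-2 libraries. Control replicates 1 and 2 had 8 and 7 peaks there, and shCHD7-2 replicates 1 and 2 had 2 and 1. The means were 7.5 ± 0.707 peaks in control and 1.5 ± 0.707 in shCHD7-2 (SD, n = 2 each). Their log2 ratio was -2.32, against -0.67 for the whole lists. The groups did not overlap. An exact two-sided permutation test gave p = 0.333, the smallest that 2 libraries against 2 can reach. The peaks covered 3235 and 2501 bp in the control libraries and 767 and 320 bp in the shCHD7-2 libraries, a log2 ratio of -2.40 against -0.89 for the whole lists (exact permutation test, p = 0.333). The number in shCHD7-2 was not lower when the lists were set to equal length. With the 7199 highest-ranked peaks of each library, 0 and 2 peaks remained in control replicates 1 and 2, and 2 and 0 in shCHD7-2 replicates 1 and 2. That length is the whole list of shCHD7-2 replicate 1, which therefore lost no peak. The control peaks of the windows ranked low, as given below, so the cut removed most of them by their rank. Equal numbers under it cannot show that the groups are alike.

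**Figure D1:**
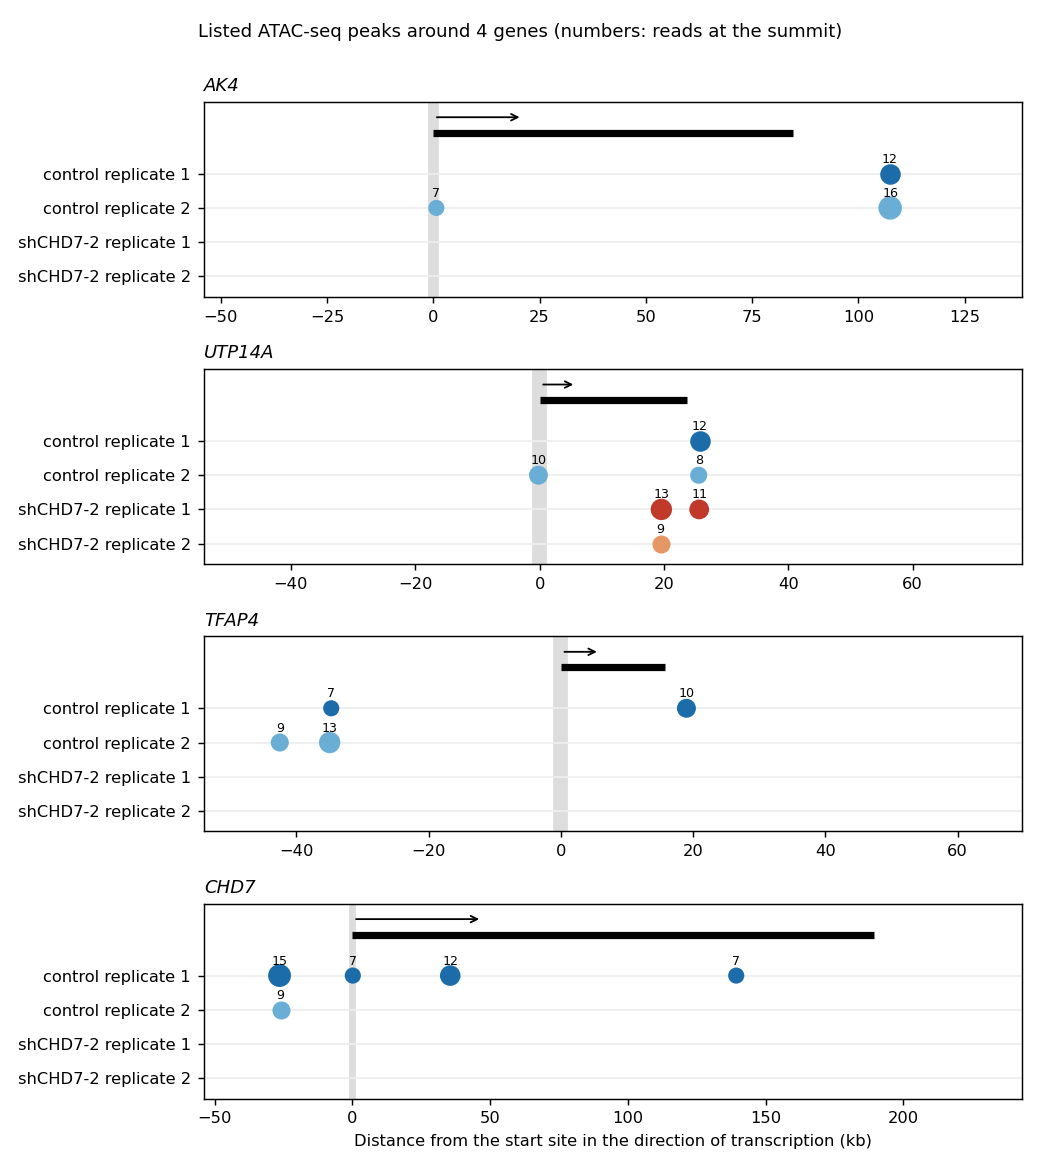
Position of every listed peak in the 4 windows, by distance of its summit from the start site in the direction of transcription (kb), with a row for each library. The black bar is the gene, the grey band is 1 kb on each side of the start, and point area and the number above it give the reads at the summit. The shCHD7-2 rows hold peaks only in the UTP14A window, and no start site has a peak in both control libraries.

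At the start sites, 3 of the 4 genes had a peak within 1 kb in some library, each time in a single control library. Control replicate 1 had a start-site peak at CHD7, and control replicate 2 had peaks at AK4 and UTP14A. No start site was called in both control libraries, and none in either shCHD7-2 library. Among all 20450 regions, whatever their rank, 30.4% were called in a single control library and no other.

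UTP14A had the strongest of these peaks. In control replicate 2 it ran from 129039799 to 129040133 on chromosome X, from 298 bp before the start to 36 bp after it, and its summit lay 185 bp before the start. By distance from the start, this takes in the whole UTP14A sequence shown above. Its summit held 10 reads over a local background of 1.10, a fold enrichment of 5.24. It ranked at percentile 29.9 of its list by -log10 p (7.58), at rank 8464 of 12092 peaks. In the other 3 libraries no peak lay within 1 kb, and the nearest edge was 25.5 kb away in control replicate 1, 19.3 kb in shCHD7-2 replicate 1 and 19.4 kb in shCHD7-2 replicate 2.

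The AK4 peak of control replicate 2 lay inside the gene, from 65613794 to 65614134 on chromosome 1. It began 562 bp after the start, with its summit at 721 bp, and did not reach the sequence before the first start shown above. By the same distances it takes in the start that RefSeq lists 651 bases after the first. With a start-site window of 500 bp in place of 1 kb, AK4 had no call. The summit held 7 reads at a fold enrichment of 3.74. Its percentile was 1.39, at rank 11924 of 12092 peaks. Within the window, the peak of control replicate 1 nearest to the AK4 start was 107 kb away, and the shCHD7-2 libraries had none. Outside the window, control replicate 1 had a peak 80.5 kb before the start.

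CHD7, the gene targeted by the hairpin, had a start-site peak in control replicate 1 alone. It was 200 bp wide, the narrowest width in the list, and ran from 61591423 to 61591622 on chromosome 8, from 99 to 298 bp after the start. The summit held 7 reads at a fold enrichment of 3.74, and the peak stood at percentile 1.57 (rank 13048 of 13257). It was therefore close to the lower limit of the list, as was the AK4 peak.

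TFAP4 had no peak within 1 kb of its start in any library. The nearest peak edge was 18.8 kb from the start in control replicate 1 and 34.6 kb in control replicate 2. No peak was listed in the TFAP4 window in either shCHD7-2 library. A promoter without a listed peak in control cannot show a loss in these lists.

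**Figure D2:**
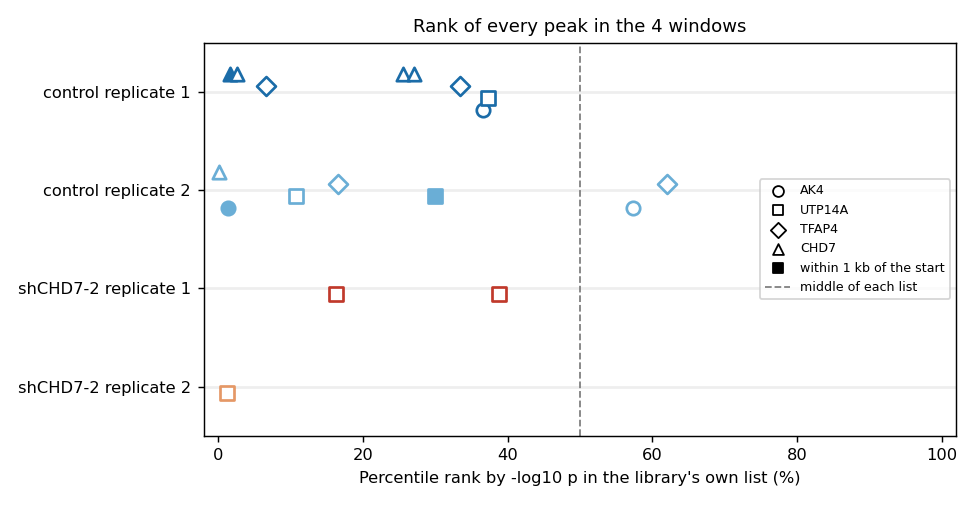
Percentile rank of each peak by -log10 p within its own library's list (horizontal axis, %), with a row for each library and a symbol for each gene. Filled symbols are the 3 start-site peaks, which stand at percentiles 1.39, 1.57 and 29.9. Of the 18 peaks, 2 lie above the middle of their list, both in control replicate 2.

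The peaks of these windows ranked low in their lists as a whole. The 8 peaks of control replicate 1 lay between percentiles 1.57 and 37.2, with a median of 26.3. Those of control replicate 2 ranged from 0.120 to 62.0, with a median of 16.6. In shCHD7-2 replicate 1 the 2 peaks stood at 16.3 and 38.8, and the peak of shCHD7-2 replicate 2 stood at 1.24. Their widths were also below those of the lists, with medians of 368 and 335 bp in control replicates 1 and 2 against 466 and 459 bp for all peaks. Summits in the windows held 7 to 16 reads in the control libraries and 9 to 13 reads in the shCHD7-2 libraries. The median over all peaks was 13 reads in each control list and 14 reads in each shCHD7-2 list.

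Away from the start sites, 15 peaks formed 10 regions. Of all 13 regions, 4 were called in more than 1 library and 9 in a single control library, against 30.4% of all regions. The windows held 3 regions called in both control libraries. Those without a peak in shCHD7-2 are termed lost, and 2 of the 3 were lost. Over the whole series 34.4% of such regions were lost, and 3 regions are too few to set against that share. No region of the windows was lost with lists of equal length, with a -log10 q of at least 5, or with a flank of 10 kb. None of these settings could return a loss. Control replicate 1 kept no peak in the windows with equal lists or with that q threshold. Both lost regions lay further than 10 kb from their genes. Peaks of control libraries alone made up 11 of the 13 regions, against 44.8% of all regions, and 1 region had peaks of shCHD7-2 libraries alone, against 19.7%. The shares over all regions in this paragraph cover every rank, whereas the peaks of these windows ranked low. They are therefore not a like comparison, and whether these counts differ from those of regions of similar rank was not tested.

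The lost region at AK4 lay beyond the end of the gene, on chromosome 1 from 65720212 to 65721109, 22.4 kb past the gene end and on the side of DNAJC6, the next protein-coding gene in RefSeq's order. It was the tallest peak found in the 4 windows. Its summit held 12 reads in control replicate 1 (percentile 36.6) and 16 reads in control replicate 2 (percentile 57.3). Control regions with a peak in both replicates were sorted by mean percentile and split into 10 equal strata, and 47.4% of those in the stratum of this region were lost.

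The lost region near TFAP4 was upstream of the gene, on chromosome 16 from 4357644 to 4358087. It lay 34.6 kb before the start, on the side of the neighbouring gene GLIS2, which encodes a zinc finger transcription factor. The control libraries differed here, with 7 reads (percentile 6.67) in replicate 1 and 13 reads (percentile 62.0) in replicate 2. In its stratum of control regions 60.0% were lost. A further upstream peak, at 42.5 kb before the start, was listed in control replicate 2 alone with 9 reads, and a downstream one, 3.01 kb past the gene end, was listed in control replicate 1 alone with 10 reads.

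The shCHD7-2 peaks all lay in the UTP14A window, mostly at another place than the control peaks. UTP14A had 1 and 2 peaks in control replicates 1 and 2 and 2 and 1 in shCHD7-2 replicates 1 and 2, so the groups had the same mean of 1.5 ± 0.707 (SD, n = 2 each; exact two-sided permutation test, p = 1). The third region called in both control libraries lay on chromosome X from 129065567 to 129066191, 1.83 kb past the end of UTP14A. Its summit held 12 reads in control replicate 1 (percentile 37.2), 8 in control replicate 2 (percentile 10.7) and 11 in shCHD7-2 replicate 1 (percentile 16.3), and it had no peak in shCHD7-2 replicate 2. It was not lost, while 69.8% of the control regions in its stratum were. In these 3 lists its percentile and its unscaled summit reads overlapped between the groups. Divided by the library background, the summit was 13.1 and 9.49 in control replicates 1 and 2 and 7.85 in shCHD7-2 replicate 1. Its fold enrichment was 5.20, 4.46 and 4.32 in the same order, so on both measures shCHD7-2 replicate 1 was below both control libraries.

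A gained region, with peaks in both shCHD7-2 lists and in no control list, lay within the UTP14A gene. It ran from 129059425 to 129059824 on chromosome X, 19.3 kb after the start. Its summit held 13 reads in shCHD7-2 replicate 1 (percentile 38.8) and 9 reads in shCHD7-2 replicate 2 (percentile 1.24). It was the only region of the 4 windows called in both shCHD7-2 libraries, and over the whole series 11.0% of such regions were gained. When the pileups of all libraries were scaled to the lowest background, its peak in shCHD7-2 replicate 2 fell below the threshold and the region was no longer gained. No region of the windows was called in all 4 libraries, against 16.6% of all regions.

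The CHD7 window held 4 peaks in control replicate 1, 1 in control replicate 2 and none in the shCHD7-2 libraries. Besides the start-site peak, control replicate 1 had peaks in the gene at 35.5 kb (12 reads, percentile 27.0) and 139 kb (7 reads, percentile 2.61) after the start. Both control libraries had a peak upstream of CHD7, on the side of RAB2A, but at different positions. In control replicate 1 it ran from 61564500 to 61564923, with 15 reads and percentile 25.6. In control replicate 2 it ran from 61565115 to 61565343, with 9 reads and percentile 0.120, and 191 bases separated it from the other. They counted as separate regions, so no CHD7 region was called in both control libraries. When peaks up to 500 bp apart were merged, this pair became a single region and counted as lost.

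**Figure D3:**
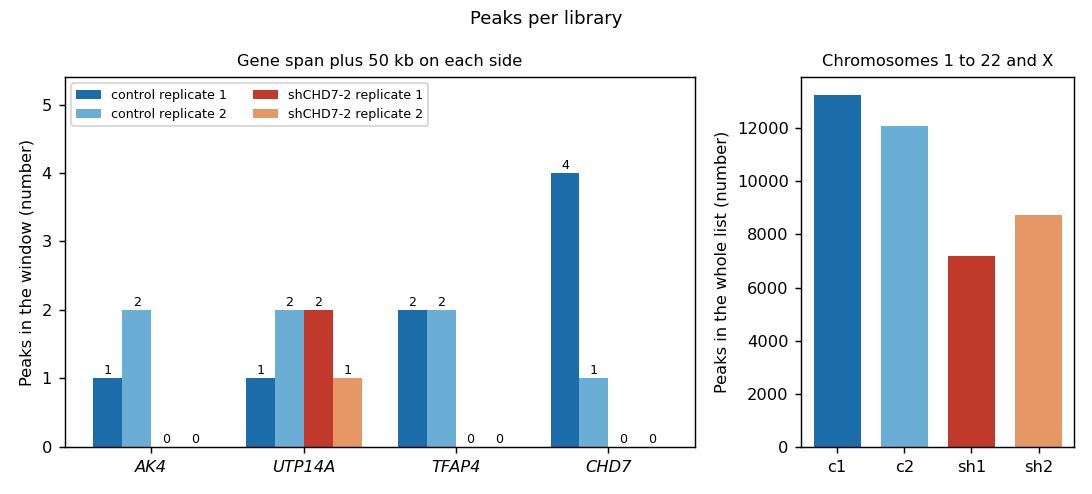
Number of peaks per library in each gene window (left) and in the whole list on chromosomes 1 to 22 and X (right), where c1 and c2 are control replicates 1 and 2 and sh1 and sh2 are shCHD7-2 replicates 1 and 2. AK4, TFAP4 and CHD7 have 0 peaks in both shCHD7-2 libraries, and UTP14A has 1 or 2 in every library.

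In 3 of the 4 windows, AK4, TFAP4 and CHD7, both shCHD7-2 libraries had fewer peaks than both control libraries. When the genome was divided into tiles of the mean window length (178 kb), the same held in 25.4% of 9994 tiles with at least 1 peak and in 29.4% of 6064 tiles with at least 3 peaks, the lowest number in any of the windows. The opposite order was found in 4.84% and 4.06% of the tiles and in none of the windows. Peaks per Mb in the windows were 11.2 and 9.81 in control replicates 1 and 2, against 4.53 and 4.13 over the span of the whole lists. In shCHD7-2 replicates 1 and 2 they were 2.80 and 1.40, against 2.46 and 2.98.

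Sharing between the control libraries was counted in these windows, where peaks ranked low. Of the 8 regions of control replicate 1, 3 had a peak in control replicate 2 (37.5%, 95% Wilson interval 13.7% to 69.4%), against 65.3% over all regions of that library. Of the 7 regions of control replicate 2, 3 had one in control replicate 1 (42.9%, 15.8% to 75.0%), against 72.0%. The first interval includes 65.3% and the second includes 72.0%, and both cover counting error only. No share was taken over regions of matched rank.

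The summits of the control peaks were scaled to each shCHD7-2 library and set against the lowest pileup listed there. Scaled by the library background, the 15 control summits would hold 10.7 to 26.6 reads in shCHD7-2 replicate 1 and 12.4 to 30.8 reads in shCHD7-2 replicate 2, all above the lowest listed pileup of 8 reads. The median summit of the 3395 regions called in all 4 libraries gives another scale. It was 23 and 21 reads in control replicates 1 and 2 and 16 and 18 reads in shCHD7-2 replicates 1 and 2. On that scale 6 of the 15 summits would reach 8 reads in shCHD7-2 replicate 1 and 7 in shCHD7-2 replicate 2. The start-site peaks of AK4 and CHD7 would hold 5.33 and 4.87 reads in shCHD7-2 replicate 1 and 6 and 5.48 reads in shCHD7-2 replicate 2, under the lowest listed value. That of UTP14A would hold 7.62 and 8.57 reads. For AK4 and CHD7 the scales thus fall on different sides of the lowest listed value in both shCHD7-2 libraries, and for UTP14A in shCHD7-2 replicate 1 but not in replicate 2. The -log10 p of a peak also depends on local background, which was not scaled here. Reaching 8 reads therefore does not show that a peak would be listed. Which scale applies was not tested.

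**Figure D4:**
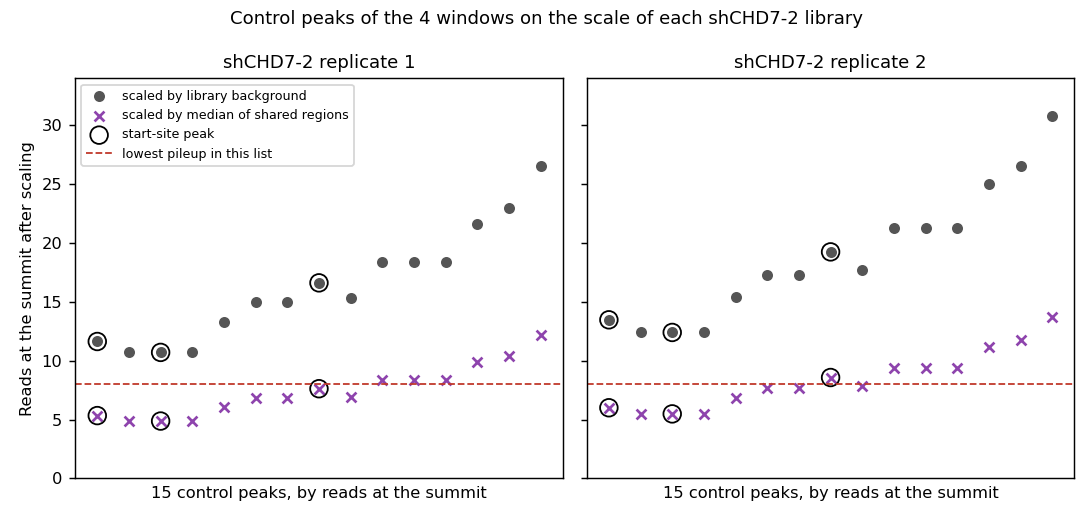
Reads at the summit of the 15 control peaks (ordered by their own reads) after scaling to each shCHD7-2 library, by library background (dots) or by the median summit of regions called in all 4 libraries (crosses), with the 3 start-site peaks circled. The dashed line is the lowest pileup listed, 8 reads. All dots lie above the line, and 6 and 7 of the 15 crosses do. A point above the line is not shown to be a peak that would be listed.

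Beyond the 50 kb limit, the nearest peak outside a window was 61.8 kb below the UTP14A span, in control replicate 2 at percentile 57.9. The peak nearest to the limit from within was the upstream TFAP4 peak of control replicate 2 at 42.3 kb, at percentile 16.6. For the limit of 1 kb around the start, the outermost start-site peak was that of AK4, and the next peak of any gene was 18.8 kb away.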

How the data were processed

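ATAC-seq was carried out on 2 control and 2 shCHD7-2 libraries, grouped and numbered by their titles. The authors deposited a peak list for each library, called separately. The submitters' processing notes name Bowtie2 2.2.5, SAMtools 1.9, MACS2 2.1.2, deepTools 3.3.0 and hg19, without roles. The Tn5 read shift, duplicate removal and thresholds are not given in the sources used here, and each could change which sites are listed. Deposited values were a score (10 times -log10 q, cut to a whole number), the fold enrichment at the summit as a ratio, the -log10 p and -log10 q, and the summit position. The lowest -log10 q was 1.30 to 1.32.

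Gene spans, flank and start-site window came from a fixed rule. The genes and tests were chosen with earlier results of these data known. All 4 genes are described whatever their values, with every region at a start site or called in 2 or more libraries. Percentiles rank peaks on chromosomes 1 to 22 and X by -log10 p within a list. Peaks on scaffolds (13 to 16 per library) were left out. Summit reads k and background b were solved from fold = (k + 1) / (b + 1) and the Poisson p, which held for 100% of peaks within 0.001, and k depends on fragment extension by the caller. Peaks sharing at least 1 bp were merged. Group means were compared by an exact permutation test. Pairing by replicate number, other flanks, windows, ranks, list lengths, thresholds, scaling to the lowest library background and leaving out libraries were alternatives. Merging peaks up to 500 bp apart and the tile with at least 3 peaks were added after seeing the data. Functions were tested on simulated data. RefSeq (GRCh38.p14) gave gene order for all 4 genes and promoter sequence for 2. Other pathway genes were not analysed here, for lack of hg19 positions. Scripts ran under Python 3.11.15 with pandas 2.3.3, SciPy 1.17.1, NumPy 2.4.6 and matplotlib 3.10.9.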

Additional observations from a re-analysis of the deposited data

How the results depend on the processing

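Under each alternative that gave a ratio, shCHD7-2 had fewer peaks and fewer covered bases in the 4 windows, except that the log2 ratio of peaks was 0 (p = 1, exact permutation test) with lists of equal length, where covered length stood at -0.44. With a -log10 q of at least 5 no ratio could be formed, since shCHD7-2 had no peak and control replicates 1 and 2 had 0 and 2. Lost regions numbered 0 with equal lists, with that q threshold and with a flank of 10 kb, and 4 with a flank of 100 kb, as fewer or more peaks enter. The values of 0 were fixed in advance. Control replicate 1 kept no peak in the windows with equal lists or that q threshold, and the flank of 10 kb left out both lost regions. Gained regions numbered 0 with equal lists, with that q threshold and after scaling to the lowest library background, which matched background but not the summits of shared regions. Start sites called in control numbered 0 with equal lists and with that q threshold, and 2 (without AK4) with a window of 500 bp. The start-site percentiles of AK4 and CHD7 were 1.00 and 0.0498 after this scaling, and ranked by fold enrichment those of AK4, CHD7 and UTP14A were 1.82, 2.96 and 35.3. Merging peaks up to 500 bp apart gave 3 lost regions, the added one being the pair of peaks upstream of CHD7.

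Leaving out each library gave log2 ratios from -2.91 to -1.91 for the number of peaks and from -3.16 to -1.90 for the bases covered, with 2 to 7 lost regions (6 without control replicate 1 and 7 without control replicate 2), 1 gained region, 0 to 1 retained regions (1 without shCHD7-2 replicate 2) and 1 to 3 start-site calls in control (1 without control replicate 2). Lost, gained and retained were then judged on the remaining libraries only. With 1 control library left, a peak in that library alone was enough for a loss, so those counts follow a looser definition. Blocked by replicate number, the log2 ratio was -2.40 for the number of peaks and -2.52 for the bases covered (p = 0.5 by an exact sign-flip test, which can give no smaller value). The libraries share only a number: over 20450 regions, the difference in calls between replicates of control and that of shCHD7-2 had a correlation of 0.01. No percentile test was possible, nor a change between groups in a start-site summit to set beside that of retained regions, because no start site was called in all 4 libraries.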
